A study of Mus musculus with 18 samples.

Results

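The genes described here are 8 members of the pathway that senses sterols and makes cholesterol: Srebf1, Srebf2, Scap, Insig1, Hmgcs1, Sqle, Fdft1 and Lss. They were chosen by name, and every deposited peak whose Ensembl gene maps to 1 of these symbols was taken. All 8 had a peak, out of 12634 genes with a peak, and together they carried 272 of 338246 peaks. The measurement is the position of N6-methyladenosine (m6A), a methyl group on adenosines of messenger RNA, found by sequencing RNA fragments bound by an m6A antibody beside unbound input fragments.

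The cells were 3T3-L1, a line of mouse embryo fibroblasts that become fat-storing adipocytes when they are induced. The 18 samples, an antibody library and an input library each time, gave 9 peak lists. Of these, 2 lists came from cells with knockdown of Fto, which encodes an m6A demethylase (siFTO 1 and siFTO 2), 2 from control siRNA cells (siCtrl 1 and siCtrl 2), and 1 each from days -2, 0, 2, 5 and 10 of adipogenesis. The labels give all 18 samples the same line and tissue, and for the siRNA cells they give no time after transfection and no day of differentiation.

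SREBP-1 and SREBP-2, encoded by Srebf1 and Srebf2, are membrane-bound transcription factors of the endoplasmic reticulum. When sterols are scarce, the escort protein SCAP carries them to the Golgi, where proteases release the part that enters the nucleus, and when sterols are plentiful, INSIG proteins hold the SCAP complex back. SREBP-2 mainly drives genes of cholesterol synthesis, and SREBP-1 mainly drives genes of fatty acid synthesis, a main activity of maturing adipocytes.

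The lists differ as wholes, and these differences sit beside every result on the 8 genes. They held 39476 and 31259 peaks in siFTO 1 and 2, 35979 and 39133 in siCtrl 1 and 2, and 26485, 37463, 39852, 44070 and 44529 on days -2, 0, 2, 5 and 10. Introns held 18.6% and 16.7% of covered bases in the siFTO lists, against 10.9% and 11.5% in the siCtrl lists, and 5' untranslated regions (UTRs) held 4.31% and 5.02%, against 12.3% and 11.5%. The day -2 list had 22.4% in introns and 5.94% in 5' UTRs. Fto itself had 675 and 400 covered bases in the siFTO lists against 700 and 775 in the siCtrl lists, which does not measure its RNA. Of 8 adipocyte markers, 7 had a peak on each of days 2, 5 and 10. Adipoq, Plin1, Cidec and Cfd had none in any earlier or siRNA list, Fabp4, Lpl and Lipe already had a peak on day -2, and Cd36 had none at all. Lpl ran against this order, with 500, 400, 750, 275 and 275 covered bases on days -2, 0, 2, 5 and 10. The summed covered bases of the adipocyte markers were 700 and 675 in siFTO and 1125 and 1250 in siCtrl. Of 8 preadipocyte markers, Ly6a alone had no peak, and 5 of the other 7 had fewer covered bases in both siFTO lists, beside 33.4% of all genes. Their sums were 6250 and 4875 in siFTO, 9075 and 9450 in siCtrl, and 4450, 11675, 7775, 9675 and 10475 on days -2, 0, 2, 5 and 10. The part of these marker differences in the results below was not tested. Of 8 markers of other cell types, Des alone had a peak, and Ptprc, Adgre1, Cd68, Pecam1, Cdh5, Myod1 and Epcam had none.

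The stretches before 4 transcript starts are printed because SREBPs are known to act on promoters of their own pathway and because m6A peaks lie near these starts. Each holds the 170 bases before a RefSeq transcript start (GRCm38.p6), 5' to 3' on the strand of the gene. Capitals mark TCACCCCA, the core of the sterol response element bound by SREBPs, CCAAT, the box bound by NF-Y (ATTGG where it lies on the opposite strand), and CACGTG, the E-box, which SREBPs can also bind.
Srebf2: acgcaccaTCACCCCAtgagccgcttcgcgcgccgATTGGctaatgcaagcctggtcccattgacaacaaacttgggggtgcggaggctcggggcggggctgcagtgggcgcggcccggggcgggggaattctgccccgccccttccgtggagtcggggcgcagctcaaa
Hmgcs1: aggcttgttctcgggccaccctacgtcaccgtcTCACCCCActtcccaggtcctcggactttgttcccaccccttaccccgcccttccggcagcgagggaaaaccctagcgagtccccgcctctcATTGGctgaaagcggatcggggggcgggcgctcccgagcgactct
Insig1: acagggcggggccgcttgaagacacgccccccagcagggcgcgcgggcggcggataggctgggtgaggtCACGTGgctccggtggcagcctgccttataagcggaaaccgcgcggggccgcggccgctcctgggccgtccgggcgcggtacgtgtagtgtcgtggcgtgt
Srebf1: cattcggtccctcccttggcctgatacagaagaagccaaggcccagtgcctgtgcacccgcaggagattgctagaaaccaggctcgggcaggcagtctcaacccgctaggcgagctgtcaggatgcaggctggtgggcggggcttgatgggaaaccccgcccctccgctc
These lie at chr15:82147099-82147268 (plus strand), chr13:119690181-119690350 (plus), chr5:28071242-28071411 (plus) and chr11:60220628-60220797 (minus), in the order printed. TCACCCCA was in Srebf2, from base -162, and in Hmgcs1, from base -137, on the strand of the gene, and in 0.892% of 32851 RefSeq promoter stretches of the same length, with both strands searched. CCAAT on the opposite strand followed it in Srebf2 at -135 and in Hmgcs1 at -45, and 26.6% of the stretches hold CCAAT on either strand. CACGTG was in Insig1 from base -101 and before 1 of 2 Scap starts from base -40, against 4.67% of stretches. The printed Srebf1 stretch holds none of the 3 motifs, and no bases are shared between motifs in these stretches. Among the stretches not printed, CCAAT was before the other Srebf1 starts, at -166 from 60222581 and, on the opposite strand, at -30 from 60210471. It was also before Lss, on the opposite strand, at -62. Of the 8 genes, 6 are in the promoter table, with 9 starts, and Sqle and Fdft1 are not. A match is a run of letters and not a shown binding site.

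Across the 4 siRNA lists, the 8 genes differed in direction (plot of covered bases by gene). Covered bases are the bases of a gene that lie under at least 1 peak of a list. Hmgcs1, Insig1 and Sqle had more covered bases in each siFTO list than in any siCtrl list, which is 3 of 8 genes beside 25.8% of the 11482 genes with a peak in these lists. Scap had fewer, which is 1 of 8 beside 33.4%. The median difference, siFTO minus siCtrl, was 75 bases over the 8 genes and 0 bases over all genes. Summed over the 8 genes, 3800 and 3275 bases were covered in the siFTO lists (3537.5 ± 371, SD, n = 2) and 3675 and 3725 in the siCtrl lists (3700 ± 35.4), so the siCtrl sums lay within the siFTO range. As a share of all covered bases of the list, the 8 genes took 0.0771% and 0.0845% in the siFTO lists, against 0.0753% and 0.0702% in the siCtrl lists, with no overlap, so the sum difference of -162.5 bases became 400.797 when each list was scaled to its own total.

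No gene of the 11482 could pass a test with 2 lists against 2. The two-sided exact permutation test over the 6 assignments of lists has a smallest p of 0.333, and the lowest Benjamini-Hochberg adjusted p over all genes was 0.563. No gene had an unadjusted p under 0.05. Scap, Hmgcs1, Insig1 and Sqle each stood at p = 0.333 by the exact permutation test, adjusted 0.563. Nothing in the labels says that the lists of a group came from separate cultures. The lists give positions of peaks and no RNA level: fewer cells of a type and less RNA per cell cannot be told apart in bulk samples, and neither can be told apart from fewer modified transcripts. Read depth is unknown.

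**Figure D1:**
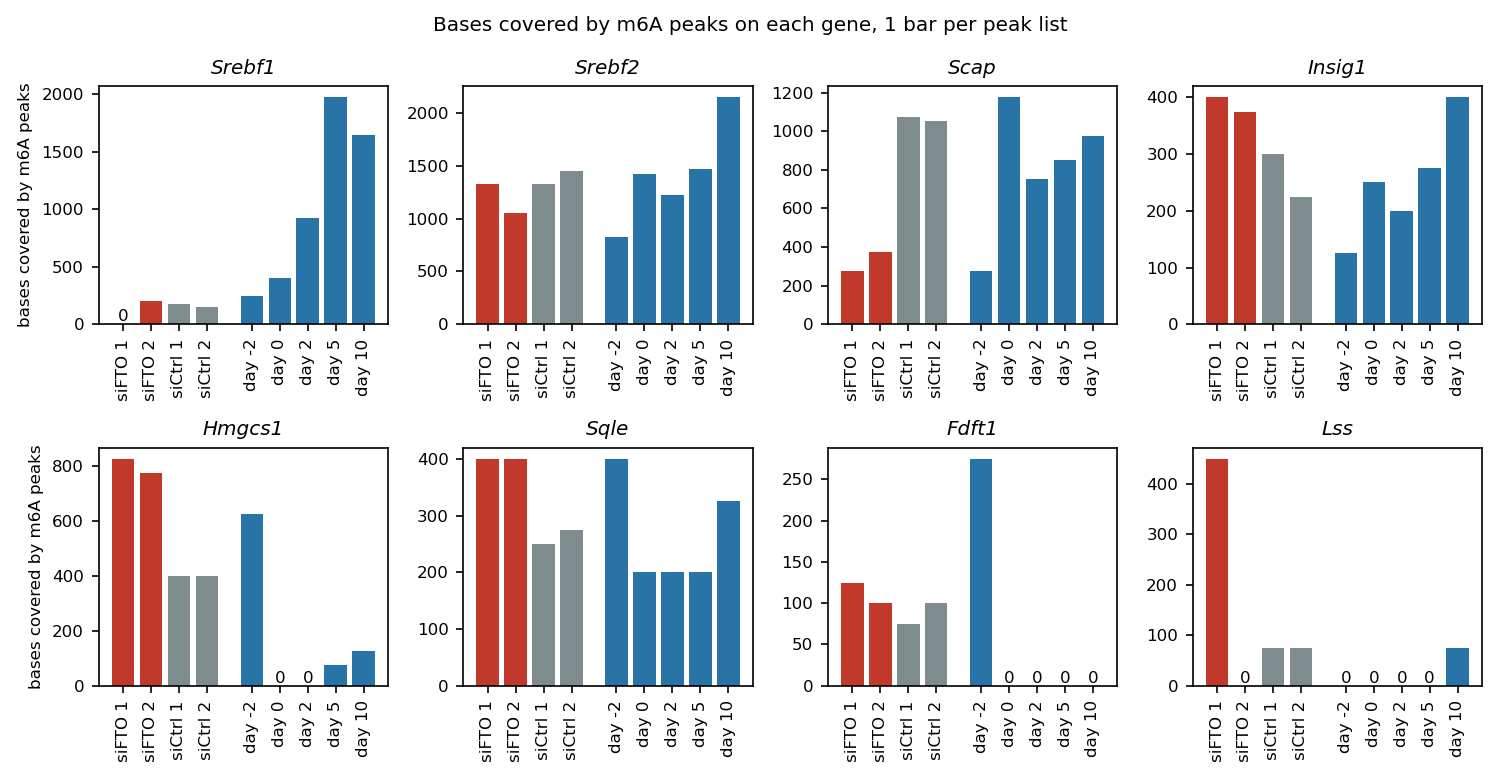
Bases covered by m6A peaks on each of the 8 genes, 1 bar per peak list, with siFTO in red, siCtrl in grey and stages of adipogenesis in blue; each panel has its own linear axis from 0. Scap is lower in both siFTO bars (275 and 375 bases, against 1075 and 1050 in siCtrl), Hmgcs1 is higher (825 and 775, against 400 and 400), and Srebf1 is highest on days 5 and 10 (1975 and 1650).

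Srebf1, on the minus strand of chromosome 11, carried few m6A bases in the siRNA lists and most in the late stages. It had 0 and 200 covered bases in the siFTO lists and 175 and 150 in the siCtrl lists, and these ranges overlapped (difference -62.5 bases, exact permutation p = 1). Over the stages it had 250, 400, 925, 1975 and 1650 bases on days -2, 0, 2, 5 and 10. Each stage up to day 5 was above the one before. The day 2 value was 2.24-fold that of day 0, and the day 10 value was 3.94-fold that of day 0, after adding 25 bases to each value. The stages have 1 list each, so these ratios have no replicate check, and the day 2 ratio was no longer at 2-fold without intronic peaks or with all lists cut to the same number of peaks. The number of Srebf1 peaks was 2, 3, 7, 14 and 13 on days -2, 0, 2, 5 and 10.

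The added Srebf1 peaks lay across the coding sequence (plot of peak positions). When the peaks of all lists were merged where they shared at least 1 base, Srebf1 had 13 regions. Of these, 10 were in none of the siRNA lists, while over all genes 47900 of 67991 regions were in at least 1 of them. A coding region at chr11:60206826-60207025 was first listed on day 2, with folds of the antibody library over the input of 2.0, 3.8 and 2.99 on days 2, 5 and 10. These folds are the authors' values, taken from the highest peak of the region, and are used only within a list: they stood at percentiles 8.44, 32.6 and 19.5 of all its peaks. A coding region at chr11:60205976-60206100 appeared on days 5 and 10 alone, with folds of 2.72 and 2.81. The region at the end of the coding sequence, chr11:60199826-60200175, was in siCtrl 1 with a fold of 1.68 and in the lists of days 0, 2, 5 and 10, where its highest folds were 3.55, 2.65, 6.8 and 8.35. On days 5 and 10 it reached into the 3' UTR.

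Srebf1 is known to have alternative starts, whose transcripts encode SREBP-1a and SREBP-1c. The RefSeq promoter table lists 3 starts, at 60222581, 60220627 and 60210471, and does not name the isoforms. The one region of Srebf1 that was in 8 of 9 lists, chr11:60220451-60220625, begins 2 bases into the transcript from the start at 60220627, the start whose upstream stretch is printed above. Its folds were 2.29 in siFTO 2, with no peak in siFTO 1, 1.63 and 1.58 in siCtrl 1 and 2, and 2.72, 3.14, 2.96, 6.02 and 5.48 on days -2, 0, 2, 5 and 10. The authors labelled it 5' UTR in the siRNA lists and on day -2 and coding sequence from day 0 on, at nearly the same position. No list had a peak in the first 500 bases from either of the other starts.

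Srebf2, on the plus strand of chromosome 15, carried m6A in every list. It had 1325 and 1050 covered bases in the siFTO lists and 1325 and 1450 in the siCtrl lists (1187.5 ± 194 and 1387.5 ± 88.4, SD, n = 2 each). The groups met at 1325, and the difference of -200 bases had an exact permutation p of 0.667. It turned to 87.5 when all lists were cut to the same number of peaks. Over the stages Srebf2 had 825, 1425, 1225, 1475 and 2150 bases on days -2, 0, 2, 5 and 10, lowest on day -2 and highest on day 10.

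Srebf2 had 22 regions, more than any of the other 7 genes, and 2 of them were in all 9 lists. The first, chr15:82147226-82147500, reaches over the transcript start whose upstream stretch holds the sterol response element core printed above. The siFTO and day -2 peaks in it lay at 82147376-82147500, past the start at 82147269, while both siCtrl lists also had a peak over the start. The authors labelled that siCtrl peak 5' UTR and the siFTO peaks coding sequence. The highest folds were 1.54 and 1.8 in siFTO 1 and 2, and 4.5 and 4.11, from the peak over the start, in siCtrl 1 and 2. In rank within the list these were percentiles 5.25 and 10.8 in siFTO, against 64.7 and 59.4 in siCtrl, and the groups did not overlap. The siCtrl peak at 82147364-82147500, nearly the siFTO position, had folds of 3.47 and 3.38, at percentiles 50.5 and 48.2. Over the stages the highest percentiles of the region were 2.12, 13.7, 11.4, 60.5 and 43.3 on days -2, 0, 2, 5 and 10. The whole siFTO lists had a lower 5' UTR share, given above, and its part in the result was not tested. The second, a coding region at chr15:82194026-82194175, had folds of 5.54 and 9.54 in siFTO and 4.49 and 4.04 in siCtrl, at percentiles 62.6 and 79.3 against 64.6 and 58.4, which overlapped. Its stage folds were 8.27, 1.74, 2.91, 2.42 and 5.21, at percentiles 64.6, 4.41, 22.5, 14.1 and 42.5 on days -2, 0, 2, 5 and 10. A Srebf2 coding region at chr15:82175076-82175225 was shared by the siFTO pair, absent from siCtrl and present in all 5 stage lists. It ranked low, with folds of 1.43 and 1.69 in siFTO 1 and 2, at percentiles 3.18 and 8.22. Its stage percentiles were 0.351, 0.502, 2.49, 6.49 and 20.3 on days -2, 0, 2, 5 and 10. In all, the siFTO pair shared 3 Srebf2 regions that siCtrl lacked, the others being intronic, at chr15:82173326-82173475 and chr15:82193076-82193200. Conversely, 4 Srebf2 coding regions were shared by the siCtrl pair and absent from siFTO.

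**Figure D2:**
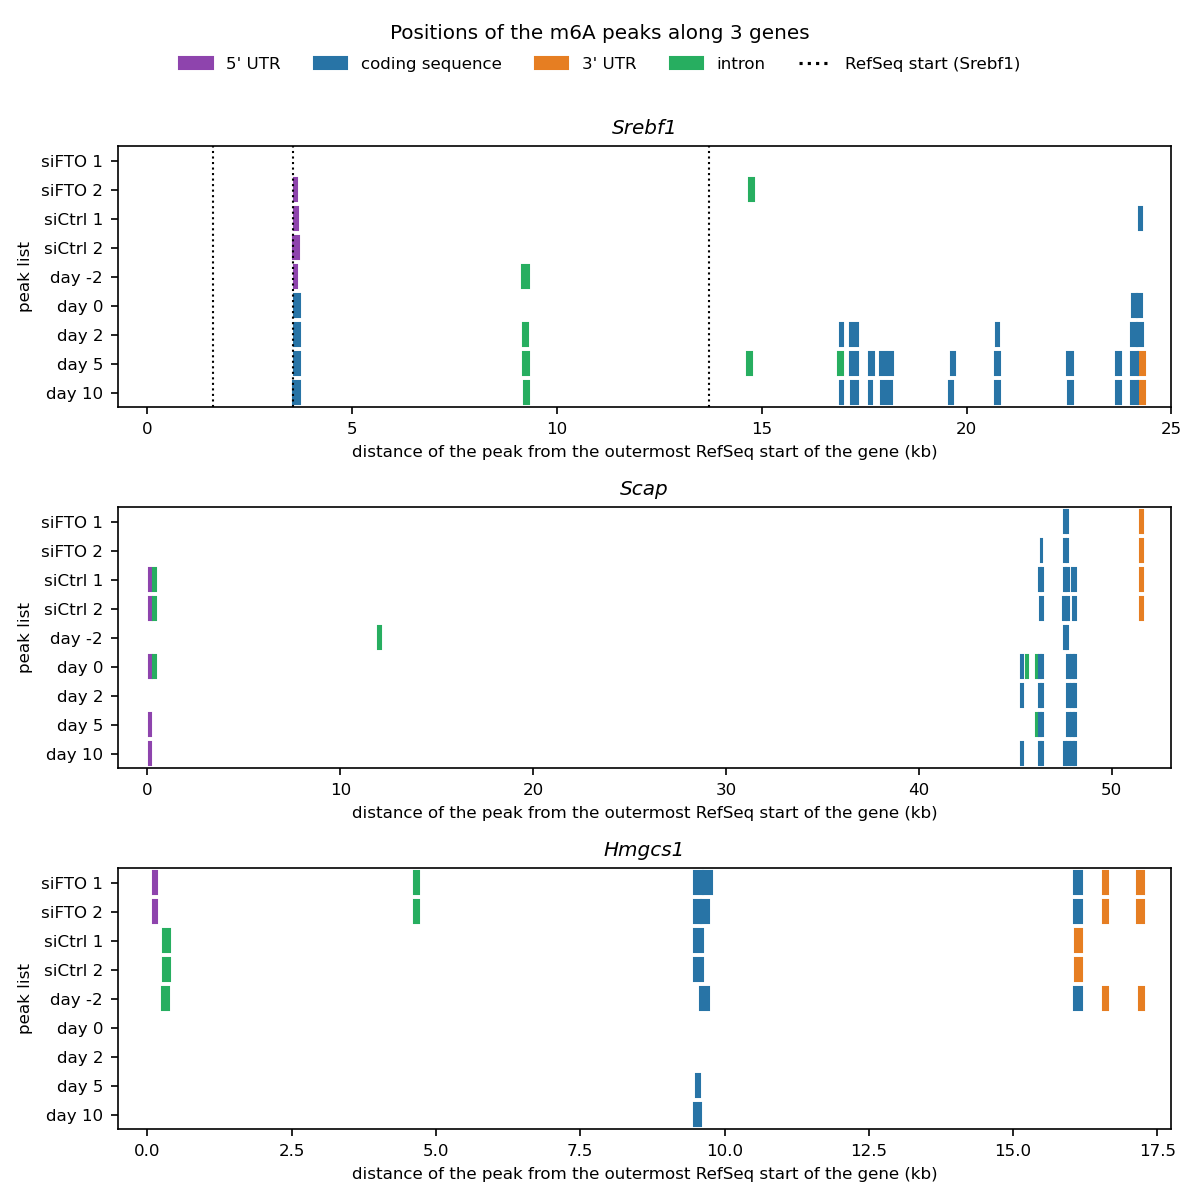
Peaks of Srebf1, Scap and Hmgcs1 in the 9 lists, placed by distance in kilobases from the outermost RefSeq start of the gene and coloured by the authors' transcript part; dotted lines mark the RefSeq starts of the promoter table for Srebf1, and short peaks are drawn at a minimum width. Srebf1 has most of its peaks on days 5 and 10 (14 and 13 peaks, most of them coding), Scap has its 5' UTR peaks in siCtrl and stage lists only, and Hmgcs1 has no peak on days 0 and 2.

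Scap, which encodes the escort of the SREBPs, had the largest difference between the siRNA groups among the 8 genes. It had 275 and 375 covered bases in the siFTO lists, against 1075 and 1050 in the siCtrl lists. The groups did not overlap, and the difference was -737.5 bases (325 ± 70.7 against 1062.5 ± 17.7, SD, n = 2 each, exact permutation p = 0.333, the smallest possible). The sign held under all 9 alternative settings. Those that leave out 1 siRNA list could not change it, because the groups did not overlap. The stages had 275 bases on day -2 and then 1175, 750, 850 and 975 on days 0, 2, 5 and 10. The day -2 value equalled that of siFTO 1, the other stages lay above both siFTO lists, and the day 0 value was 4-fold that of day -2. Of the equal values, 150 bases were coding in both lists, and 125 were intronic on day -2 but in the 3' UTR in siFTO 1.

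On Scap, 3 regions were shared by the siCtrl pair and absent from siFTO, and none showed the reverse. The first, a 5' UTR region at chr9:110333351-110333500, had folds of 4.71 and 2.72 in siCtrl 1 and 2, and 7.63, 3.8 and 6.51 on days 0, 5 and 10. The next was in the first intron at chr9:110333601-110333725, with folds of 11.35 and 9.34 in siCtrl and 8.04 on day 0. The coding region at chr9:110381201-110381450 had folds of 1.65 and 1.68 in siCtrl and 6.11, 7.02, 5.66 and 7.58 on days 0, 2, 5 and 10. All 3 were missing on day -2 as well as in siFTO. The neighbouring coding region at chr9:110380926-110381150 was in all 9 lists, with folds of 1.77 and 2.12 in siFTO, 1.81 and 1.84 in siCtrl, and 1.52, 2.8, 2.58, 3.27 and 4.65 over the stages. The 5' UTR loss on Scap goes with the lower 5' UTR share of the whole siFTO lists given above, and the part of that share in the result was not tested.

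Insig1, whose protein retains the SCAP complex when sterols are plentiful and which is itself a target of SREBPs, lies on chromosome 5. It had 400 and 375 covered bases in the siFTO lists, against 300 and 225 in the siCtrl lists, with no overlap (difference 125 bases, 387.5 ± 17.7 against 262.5 ± 53, SD, n = 2 each, exact permutation p = 0.333). The direction rests on intronic peaks, since the difference was -125 bases without them, and it was 0 with only the peaks at or above the median fold of each list. The stages had 125, 250, 200, 275 and 400 bases on days -2, 0, 2, 5 and 10, and the day 10 value equalled that of siFTO 1. The parts differed: day 10 had 275 coding and 125 intronic bases, while siFTO 1 had 150 in the 3' UTR and 250 intronic.

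All 4 regions of Insig1 fell into clear patterns over the siRNA lists. The region at the 5' end, chr5:28071476-28071750, which is labelled coding sequence, was in siCtrl 1 and 2, with folds of 1.49 and 1.22, absent from siFTO, and present on each of days 0, 2, 5 and 10. An intronic region directly downstream, chr5:28071801-28071950, was in siFTO 1 and 2, with folds of 3.23 and 2.66, absent from siCtrl, and present on days -2, 5 and 10. A further intronic region, chr5:28074076-28074200, was in the siFTO lists alone, with folds of 2.64 and 3.31. The 3' UTR region at chr5:28078451-28078600 was in all 4 siRNA lists and on no stage. Its folds were 10.79 and 17.18 in siFTO and 11.5 and 16.63 in siCtrl, at percentiles 81.2 and 88.9 against 93.7 and 96.7, so it ranked high in each siRNA list.

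Hmgcs1 encodes the cytosolic HMG-CoA synthase, which feeds the mevalonate pathway, and is a classical target of SREBP-2. It had 825 and 775 covered bases in the siFTO lists, against 400 and 400 in the siCtrl lists, with no overlap (difference 400 bases, 800 ± 35.4 against 400 ± 0, SD, n = 2 each, exact permutation p = 0.333). The sign held under all 9 alternative settings. The stages had 625 bases on day -2, 0 on days 0 and 2, 75 on day 5 and 125 on day 10. The day -2 value lay between the siFTO and siCtrl values, and every later stage was below all 4 siRNA lists.

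Hmgcs1 had 7 regions, 4 of them shared by the siFTO pair and absent from siCtrl. Among these were both of its 3' UTR regions. The one at chr13:119707501-119707625 had folds of 22.65 and 27.7 in siFTO 1 and 2, at percentiles 93.9 and 95.3 of those lists, and 73.36 on day -2, at percentile 93. The one at chr13:119706901-119707000 had folds of 1.88 and 1.96 in siFTO and 2 on day -2, at percentiles 12.4, 14.3 and 11.5. The coding region at chr13:119699826-119700125 was in all 4 siRNA lists, with folds of 5.88 and 5.02 in siFTO, against 1.79 and 1.67 in siCtrl, at percentiles 64.8 and 59.1 against 11.3 and 7.99. At the 5' end the groups held different regions: a 5' UTR region at chr13:119690451-119690525 was in the siFTO lists alone, and an intronic region at chr13:119690601-119690750 was in both siCtrl lists and on day -2.

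Sqle encodes squalene epoxidase, a rate-limiting enzyme of sterol synthesis. It had 400 and 400 covered bases in the siFTO lists, against 250 and 275 in the siCtrl lists, with no overlap (difference 137.5 bases, 400 ± 0 against 262.5 ± 17.7, SD, n = 2 each, exact permutation p = 0.333). The difference was -150 bases with only the peaks at or above the median fold of each list, and -50 with all lists cut to the same number of peaks. Without intronic peaks Sqle had 300 and 275 bases in siFTO and 250 and 275 in siCtrl, so the groups met and the difference was 25. The stages had 400 bases on day -2, 200 on days 0, 2 and 5, and 325 on day 10, so the day -2 value equalled the siFTO values. The parts of these equal values differed. In 5' UTR, coding and intronic bases they were 150, 150 and 100 in siFTO 1, 200, 75 and 125 in siFTO 2, and 125, 175 and 100 on day -2. The intronic peaks lay in different regions, at chr15:59329501-59329600, chr15:59320001-59320125 and chr15:59330601-59330700 in the same order, each in 1 list.

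The siCtrl peaks of Sqle all lay in its 5' UTR, where chr15:59315076-59315425 was in all 9 lists. Its folds were 2.14 and 2.56 in siFTO, against 5.15 and 5.54 in siCtrl, at percentiles 18.2 and 27.5 against 71 and 73.4, with no overlap. Over the stages the percentile of that region was 7.51 on day -2, 45.8, 48.4 and 46 on days 0, 2 and 5, and 88.2 on day 10. A coding region at chr15:59317776-59317850 was in siFTO 1 and 2, with folds of 1.6 and 1.37, absent from siCtrl, and present on day -2 with 1.59.

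Fdft1, the gene of squalene synthase, which commits the pathway to sterols, had 125 and 100 covered bases in the siFTO lists and 75 and 100 in the siCtrl lists. The groups met at 100, with a difference of 25 bases (exact permutation p = 0.667). These bases were a single 3' UTR region, chr14:63146626-63146750, with folds of 2.1 and 1.55 in siFTO and 1.68 and 1.72 in siCtrl. On day -2 Fdft1 instead had 275 bases in a pair of intronic regions, and it had no peak on days 0, 2, 5 and 10.

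Lss encodes lanosterol synthase, which closes the sterol rings. It had 450 and 0 covered bases in the siFTO lists and 75 and 75 in the siCtrl lists, so the siFTO lists lay on both sides of siCtrl, and the difference of 150 bases became -75 without siFTO 1. The shared region, chr10:76533501-76533600, had folds of 1.31 in siFTO 1 and 1.29 and 1.3 in siCtrl, among the lowest of those lists, at percentiles 1.67, 1.12 and 1.12. Of the stages, day 10 alone had a peak, of 75 bases.

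Counted by region, 48 of the 70 merged regions of the 8 genes were in at least 1 siRNA list, beside 47900 of 67991 over all genes (plot of region presence). All 4 siRNA lists held 12 of the 48, which were 6 coding, 4 in the 3' UTR, 1 intronic and 1 in the 5' UTR. Over all genes, they held 10435 coding, 2128 3' UTR, 1308 intronic and 931 5' UTR regions of the 47900. The siFTO pair shared 10 of 48 regions that siCtrl lacked, beside 12.3% of 47900 regions of all genes. The siCtrl pair shared 9 of 48 that siFTO lacked, beside 14.6%. By part, the 10 siFTO regions were 5 intronic, 2 coding, 2 in the 3' UTR and 1 in the 5' UTR, and the 9 siCtrl regions were 6 coding, 2 intronic and 1 in the 5' UTR. The higher intron share of the whole siFTO lists goes with the first of these, and its part in the result was not tested.

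The regions seen in 1 siRNA group had different counterparts among the stages. Of the 10 siFTO regions, 6 were in the day -2 list, beside 36.2% over all genes, and 3 were in any list of days 0 to 10, beside 25.5%. Of the 9 siCtrl regions, 2 were in the day -2 list, beside 15.5%, and 7 were in a list of days 0 to 10, beside 86.1%. The members' counts thus follow the split that holds over all genes.

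**Figure D3:**
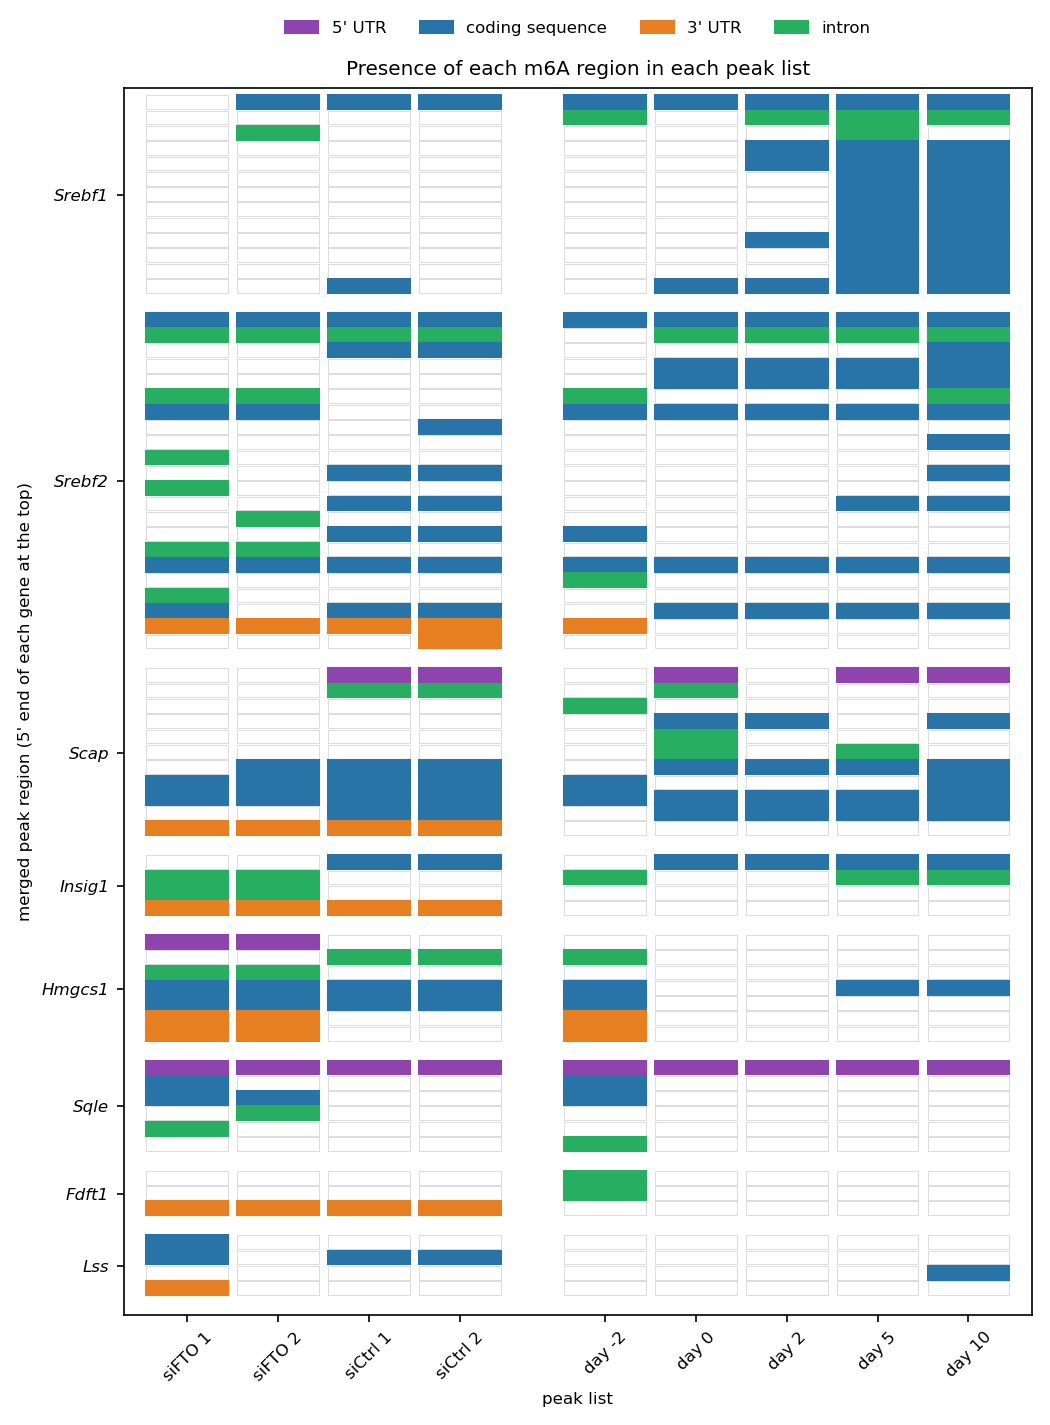
Presence of the 70 merged regions of the 8 genes in each of the 9 lists, 1 row per region from the 5' end of each gene down, coloured by transcript part, with open boxes where the list has no peak. The 4 regions of the 3' UTR held by all 4 siRNA lists (Srebf2, Scap, Insig1 and Fdft1) have open boxes on days 0 to 10, and Srebf1 rows fill on days 5 and 10.

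Changes of at least 2-fold were counted for 3 pairs of stages, day 0 with day -2, day 2 with day 0 and day 10 with day 0. On day 0, Scap alone was at least 2-fold higher than on day -2, which is 1 of 7 genes with a peak in either list, beside 39.2% of 10606 genes. Hmgcs1 and Fdft1 were at least 2-fold lower, which is 2 of 7 beside 24.2%. On day 2, Srebf1 was the one gene higher than on day 0, 1 of 5 beside 16.1%, and 0 of 5 were lower, beside 9.46%. On day 10, Srebf1, Hmgcs1 and Lss were higher than on day 0, 3 of 7 beside 19.5%, and 0 of 7 were lower, beside 5.62%. Hmgcs1 and Lss had 125 and 75 covered bases on day 10 and no peak on day 0. Each had 1 peak on day 10, with folds of 1.5 and 2.13, at the low percentiles 1.27 and 7.72 of that list. The median ratio of day 10 to day 0 was 1.56 over 7 members and 1.18 over all genes. Summed over the 8 genes, covered bases were 2775, 3450, 3300, 4850 and 5700 on days -2, 0, 2, 5 and 10. As a share of all covered bases of the list they were 0.0854%, 0.067%, 0.0604%, 0.0798% and 0.0931%, lowest on day 2. Srebf1 alone held 250, 400, 925, 1975 and 1650 of the summed bases on these days.

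The parts of the transcript that carried m6A differed between the siRNA lists and the stages (plot of covered bases by part). A 3' UTR peak was on 6 and 5 of the 8 genes in the siFTO lists and on 5 and 5 in the siCtrl lists, beside 30.3% and 24% of all genes in siFTO and 22.3% and 24.3% in siCtrl. Over the stages it was on 2, 0, 0, 1 and 2 of the 8 genes on days -2, 0, 2, 5 and 10, beside 17.9%, 19.7%, 21.3%, 22.4% and 22.8% of all genes. In covered bases, 3' UTRs held 1025 and 725 in siFTO, 600 and 725 in siCtrl, and 325, 0, 0, 175 and 337 over the stages. The siFTO and siCtrl ranges met at 725 bases. A site at the end of the Hmgcs1 coding sequence, chr13:119706401-119706550, is counted as 3' UTR in siCtrl and as coding sequence in siFTO, by the authors' labels. With 1 part per merged region, a setting chosen after seeing the data, 3' UTRs held 950 and 725 bases in siFTO and 475 and 600 in siCtrl, which did not overlap, and 0 on each of days 0, 2, 5 and 10. All 4 member regions of the 3' UTR that were in the 4 siRNA lists were on none of days 0 to 10, beside 18.1% of 2128 such regions over all genes. This pattern was picked after its values were seen, and the stage lists have no replicates. Of 6 coding regions in the 4 siRNA lists, 1 was on none of days 0 to 10, beside 12.1%, and the single 5' UTR and intronic regions were both on at least 1 of these days (0 of 1 missing in each case, beside 4.73% and 14.8%).

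In introns the 8 genes had 1150 and 1100 covered bases in siFTO, against 525 and 500 in siCtrl, and 1175 on day -2. In 5' UTRs they had 225 and 350 bases in siFTO, against 613 and 713 in siCtrl, and 200 on day -2. In coding sequence they had 1400 and 1100 in siFTO, against 1937 and 1787 in siCtrl. None of these 3 pairs of ranges overlapped. The genes differed in direction in coding bases. Srebf2 (400 and 400 against 787 and 862), Scap (150 and 225 against 675 and 625) and Insig1 (0 and 0 against 175 and 75) had fewer in siFTO. Hmgcs1 (450 and 400 against 150 and 150) and Sqle (150 and 75 against 0 and 0) had more. The Hmgcs1 values include the site given above that is labelled coding in siFTO and 3' UTR in siCtrl. For introns and 5' UTRs the whole lists had shares that differed in the same direction. As a share of the covered bases of the 8 genes, coding sequence held 36.8% and 33.6% in siFTO, against 52.7% and 48% in siCtrl. The coding shares of the whole lists overlapped, at 60.7% and 62.6% in siFTO and 63.3% and 62.2% in siCtrl. Coding bases summed over the 8 genes were 1075, 2250, 2625, 3350 and 4050 on days -2, 0, 2, 5 and 10. The sum was higher at each stage than at the one before. Of these bases, Srebf1 alone held 0, 400, 800, 1400 and 1350. The whole lists also grew at each stage, with 3250, 5150, 5460, 6080 and 6130 kilobases covered. Their coding shares were 59.6%, 59.5%, 60.3%, 62.3% and 62%. The Srebf1 region labelled 5' UTR on day -2 and coding sequence from day 0 is part of the first step.

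**Figure D4:**
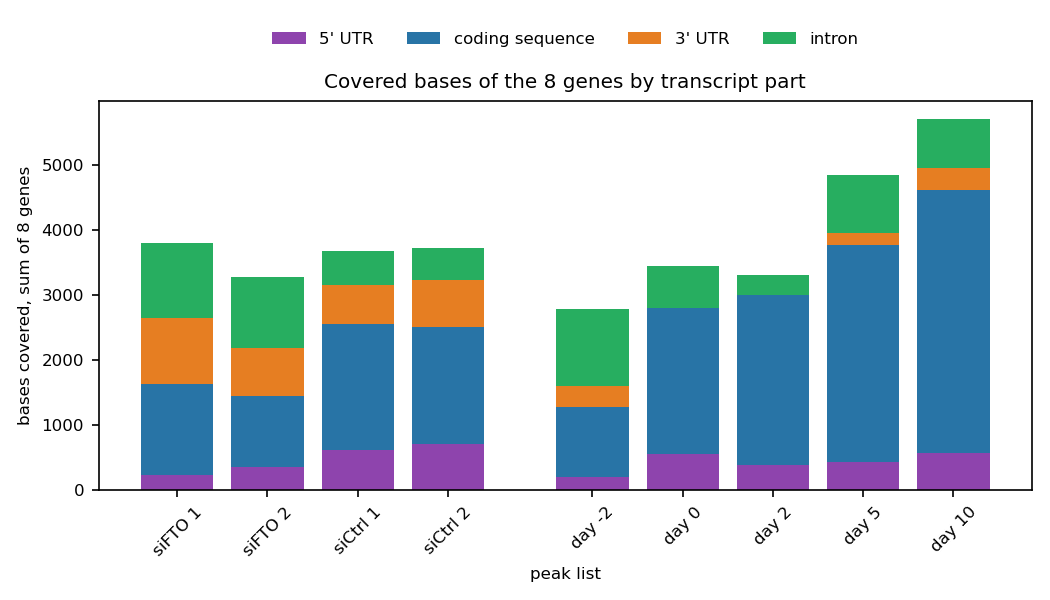
Covered bases summed over the 8 genes in each list, stacked by the authors' transcript part on a linear axis from 0. Intronic bases are 1150 and 1100 in siFTO against 525 and 500 in siCtrl, and the 3' UTR part is missing on days 0 and 2.

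Other genes of the pathway were counted from lists of 39 genes, of which 37 had a peak. Of 36 with a peak in the siRNA lists, 13 had more covered bases in each siFTO list than in any siCtrl list, 6 had fewer in the same sense and the groups overlapped for 17, beside 25.8% and 33.4% of all genes. The median difference was 31.25 bases. The enzymes stood at 9 more and 2 fewer of 16, and the control and transport genes at the rest.

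Among the other enzymes of the mevalonate branch, which makes the isoprenoid units, 4 of 6 had more and 0 had fewer. Mvk, mevalonate kinase, had 550 and 425 bases in siFTO and 0 and 0 in siCtrl. Idi1, which isomerises isopentenyl diphosphate, had 325 and 300 in siFTO and 0 and 0 in siCtrl. Of the enzymes that turn lanosterol into cholesterol, 5 of 10 had more and 2 had fewer. Msmo1, a sterol C4 demethylase, had 550 and 625 in siFTO and 125 and 0 in siCtrl, and Sc5d, a sterol desaturase, had 275 and 100 in siFTO and 0 and 0 in siCtrl. Ebp, a sterol isomerase, had 175 and 175 in siFTO and 200 and 200 in siCtrl, a small difference.

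Of 9 other genes that control SREBP processing or turnover, 1 had more and 2 had fewer. Mbtps2, the protease that makes the second cut of SREBPs, had 450 and 325 in siFTO and 100 and 100 in siCtrl. The ubiquitin ligase genes Rnf145 and Rnf139 were both lower in siFTO. Rnf145 had 775 and 800 bases there, against 950 and 975 in siCtrl, while Rnf139 had none in siFTO, against 137 and 150 in siCtrl. Of 11 genes of cholesterol uptake, transport and efflux, 3 had more and 2 had fewer. Npc2, which moves cholesterol out of lysosomes, had 350 and 275 in siFTO and 125 and 200 in siCtrl, and Stard4, a sterol carrier, had 550 and 350 in siFTO and 300 and 325 in siCtrl. Mylip, whose protein marks the LDL receptor for breakdown, had 250 and 125 in siFTO and 625 and 825 in siCtrl, and Nr1h2, a liver X receptor, had 75 and 75 in siFTO and 350 and 350 in siCtrl.

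The other enzymes differed most between lists in whether a gene had any peak at all (plot of the share of genes with a peak). Of the 17 other enzymes with a peak in any list, 16 and 13 had one in siFTO 1 and 2, and 9 and 7 in siCtrl 1 and 2. On days -2, 0, 2, 5 and 10 the number was 15, 3, 4, 7 and 10. Over all 12634 genes the share was 80.2% and 74% in siFTO, 68.9% and 71.9% in siCtrl, and 69.4%, 69%, 71.6%, 72.1% and 74.4% over the stages. Of the 8 genes, 7 and 7 had a peak in siFTO, 8 and 8 in siCtrl, and 7, 5, 5, 6 and 7 over the stages, where Hmgcs1, Fdft1 and Lss were the genes without one on days 0 and 2.

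**Figure D5:**
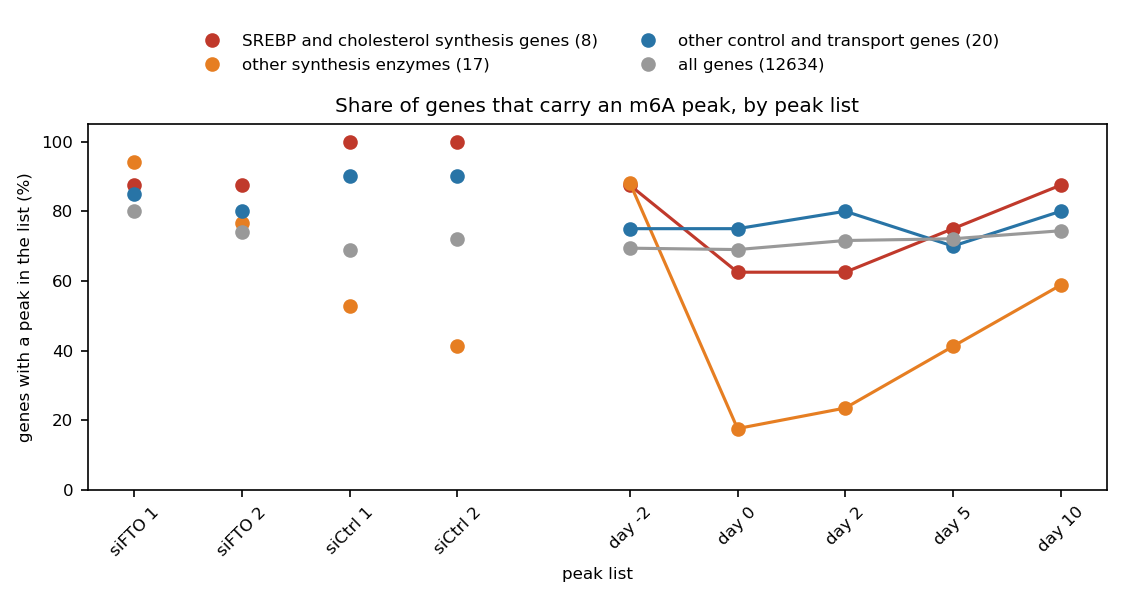
Percentage of genes with a peak in each list, for the 8 SREBP and cholesterol synthesis genes, 17 other synthesis enzymes, 20 other control and transport genes and all 12634 genes; each set counts only genes with a peak in at least 1 list, and lines join the stages. The other enzymes stand at 94.1% and 76.5% in siFTO, 52.9% and 41.2% in siCtrl and 17.6% on day 0, while all genes stay between 68.9% and 80.2%.

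Among the genes whose covered bases followed the sum of the 8 most closely over the 9 lists were Anxa6, Sh3gl1, Vim and Rbm10, with Pearson r of 0.975, 0.975, 0.973 and 0.958, out of 5562 genes with a peak in every list. These r describe 9 lists that also differ in length, and no test was made.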

How the data were processed

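RNA of 3T3-L1 cells was bound by an m6A antibody and sequenced beside its input. The submitters' processing notes name TopHat2 2.0.9, bedtools and the mm10 build. The authors' deposited enrichment was read as a ratio (fold) of antibody library over input. Its formula, the peak caller and the thresholds stand as not given in the sources used here. Every list belongs to 1 library pair, and list names gave its group. Positions, transcript parts and folds were used as deposited, and coordinates count from 1.

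With Python 3.11.15, pandas 2.3.3 and numpy 2.4.6, peaks were assigned to symbols (12492 of 12634 gene IDs matched), covered bases were computed as the union of a gene's peaks, and peaks sharing at least 1 base on a gene were merged into regions. A region's part is that of most of its peaks. siFTO and siCtrl were compared per gene over all 11482 genes by a two-sided exact permutation test with Benjamini-Hochberg adjustment. Stages were compared by ratios after adding 25 bases, called at 2-fold. Counting was tested on simulated data. Lines without a fold were left out (0 to 21 a list).

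In the 8 genes, 15 peaks had identical positions in both siFTO lists, with 0 folds equal, and 13 in both siCtrl lists, with 1 fold equal, so all lists were used as separate samples. The 8 genes and all gene lists were chosen with earlier results of these data known. Up to 2 genes of each other list in each direction were named by largest difference, besides the 5 genes most like the summed profile, and some items that the rule named are not reported here. Alternatives were a fold cut, equal list lengths, scaling, peak number, no introns, another overlap, a pseudocount of 100 bases leaving out each siRNA list and, added after seeing the data, 1 transcript part per region.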

Additional observations from a re-analysis of the deposited data

How the results depend on the processing

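Hmgcs1 and Scap kept their direction between siFTO and siCtrl under all 9 alternatives run on each. For both, leaving out 1 siRNA list could not change it, because the groups did not overlap. The Fdft1 difference was 0 with the fold cut, with equal list lengths and in number of peaks. The members with fewer covered bases (1) were 2 with peaks at or above the median fold, 2 when scaled, 4 without introns and 1 to 3 without 1 list. The members with more (3) were 1 with the fold cut, 1 without introns and 3 to 5 without 1 list. The summed difference (-162.5 bases) was 475 with equal list lengths, 400.797 when scaled, -775 without introns and 0 in number of peaks, and -425 to 100 without 1 list, positive without siFTO 2. The fold cut and equal lengths gave 62.5 and 100 for Srebf1, 6 and 87.5 for Srebf2, and -150 and -50 for Sqle. Insig1 was -125 without introns, and without 1 list Srebf1 ranged from -162.5 to 37.5 and Lss from -75 to 375, each changing sign without siFTO 1. Regions in siFTO alone (10) were 4 with the fold cut, 6 with equal lengths, 5 without introns and 10 to 17 without 1 list, and those in siCtrl alone (9) were 4 and 4 with the fold cut and equal lengths and 10 to 11 without 1 list. Members lower on day 0 than on day -2 (2) were 4 with the fold cut and 1 without introns, and those higher (1) were 3 without introns. On day 2 against day 0, those lower (0) were 2 with the fold cut and 2 with equal lengths, and those higher (1) were 0 with equal lengths and 0 without introns. On day 10 against day 0, those higher (3) were 2 with equal lengths and 2 with a pseudocount of 100 bases. Of the other pathway genes, the 13 with more were 6 with the fold cut and 21 without siFTO 2, and the 6 with fewer were 3 with equal lengths, 3 when scaled and 12 without siFTO 1. The cause of these shifts was not tested. No paired analysis was possible because the labels give a number only to the second replicate of each siRNA group and name no shared culture or day. Read depth is unknown, so an absent peak may lie below the authors' threshold.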
